A study of Citrus sinensis with 6 samples.

Results

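Genes annotated to the response to low oxygen were followed in leaves of sweet orange plants grown in tissue culture with sufficient boron (CK) or under boron deficiency stress (T). The set comprised 86 of the 29875 genes in the deposited expression table. A gene was a member when it carried the Gene Ontology (GO) term response to hypoxia (78 genes) or the wider term response to decreased oxygen levels (86 genes, which include the former). The gene with oxygen carrier activity, Cs_ont_4g003780, was named in the rule as well and also carried both terms. The genes are not named in the table, so each is given by its identifier and by what its GO terms and KEGG pathways say of it. The oxygen status of the leaves was not among the deposited measurements.

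RNA was sequenced in 6 libraries collected on day 25, 3 of CK and 3 of T. CK plants were supplied with 0.25 mg/L and T plants with 0.01 mg/L, given as boric acid in the paper and as boron in the design of the series, whereas the treatment field of the sample labels gives 0.01 mg/L for all 6 libraries. The variety was Bingtang, and plants of both groups were raised from shoots through callus and rooting in culture before the transfer to nutrient medium. The tissue field of the labels gives a leaf blade for every library, but the titles name leaf blades in CK only and leaf in T, and a difference in the part sampled cannot be told apart from the boron supply. The cell type field reads nucleus, although total RNA of leaves was labelled. The design speaks of biological replicates without saying what a replicate was, and p-values here reflect no more than the spread among the 6 libraries.

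In plants, low oxygen is sensed through transcription factors whose first cysteine is oxidized by an oxygen-consuming enzyme and which are then degraded. Where oxygen runs short, as in waterlogged roots or dense tissue, these factors persist. In Arabidopsis they switch on a core set of genes for sucrose breakdown, glycolysis, ethanol fermentation and alanine synthesis, together with a haemoglobin-like protein, phytoglobin, that binds oxygen and removes nitric oxide. Ethylene, which collects in flooded tissue, and lipid and defence signals act on part of the same genes.

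The values are FPKM, read counts scaled by gene length and library size. Whole read counts could be recovered from them, and the libraries held 17689263 to 24026197 reads in genes. Libraries were not clearly separated by group: the median Pearson correlation of log2(FPKM + 1) was 0.911 for pairs within a group and 0.893 for pairs across groups, where the highest single value of 0.958 was found. The leaf character of the samples was visible in the 3 genes of photosystem I, with a summed level of 10535 to 13595 FPKM in CK and 7278 to 11413 in T. Without the most abundant of the 3 genes the sums did not overlap, at 5007 to 6010 FPKM in CK and 3502 to 4037 FPKM in T. That gene, Cs_ont_2g017340, was also the most abundant of the photosystem II and chlorophyll-binding genes, so these lists are not independent. Without it the photosystem II sums still overlapped, at 1524 to 2093 FPKM in CK and 1080 to 1531 FPKM in T. The chlorophyll-binding sums did so too, at 6553 to 7847 FPKM in CK and 3806 to 6723 FPKM in T. By the fold change 3 of 3 photosystem I genes, 4 of 5 photosystem II genes and 11 of 12 tested chlorophyll-binding genes were lower in T, and 0 of them were called. In these bulk samples, fewer cells of a type and less RNA per cell cannot be told apart. The 16 genes of phloem development summed to 119 to 175 FPKM in CK and 247 to 313 in T, but without the most abundant of them to 118 to 166 and 127 to 151, and 2 of the 16 were at 0 in every library. By the fold change, 4 of the 14 tested phloem genes were higher and 10 lower in T. The most abundant, Cs_ont_6g011110, was called and was also the most abundant gene of the xylem list.

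The oxygen carrier gene was the only member that met the criterion given below, with higher values in T. It did not pass an adjusted p under 0.05. Members were chosen with earlier results of these data known, so its p-values and ranks describe it and are no independent support. Of the 86 members, 59 reached 1 FPKM in 3 or more libraries and were tested, and none of the 59 reached this limit through the libraries of 1 group alone. T was compared with CK by limma on log2(FPKM + 1), and a gene was called when it differed at least 2-fold with an unadjusted p of at most 0.05. The study set the same limits for differentially expressed genes but applied them to DESeq, so the calls here are not those of its own comparison. The criterion took 1 of the 59 members, a share of 1.69%, against 2.36% of all 16421 tested genes. The called member was higher in T, a direction in which 1.27% of all tested genes were called, while 1.08% were called lower and no member was. At an adjusted p under 0.05, limma called 0 members and 1 gene of the whole table (0.00609%). An unadjusted p under 0.05 was found for 5 members, or 8.47%, 2 higher and 3 lower in T, against 4.78% of all tested genes. By the fold change, 29 members had higher and 30 lower values in T. The median log2 fold change was -0.04, against 0.02 over all tested genes. The values of T and CK did not overlap for 5 members, or 8.47%, against 8.17% of all tested genes. T lay above CK in 2 of the 5 and below it in 3, against 4.46% and 3.71% of all tested genes. The share of members without overlap was therefore close to the background.

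**Figure D1:**
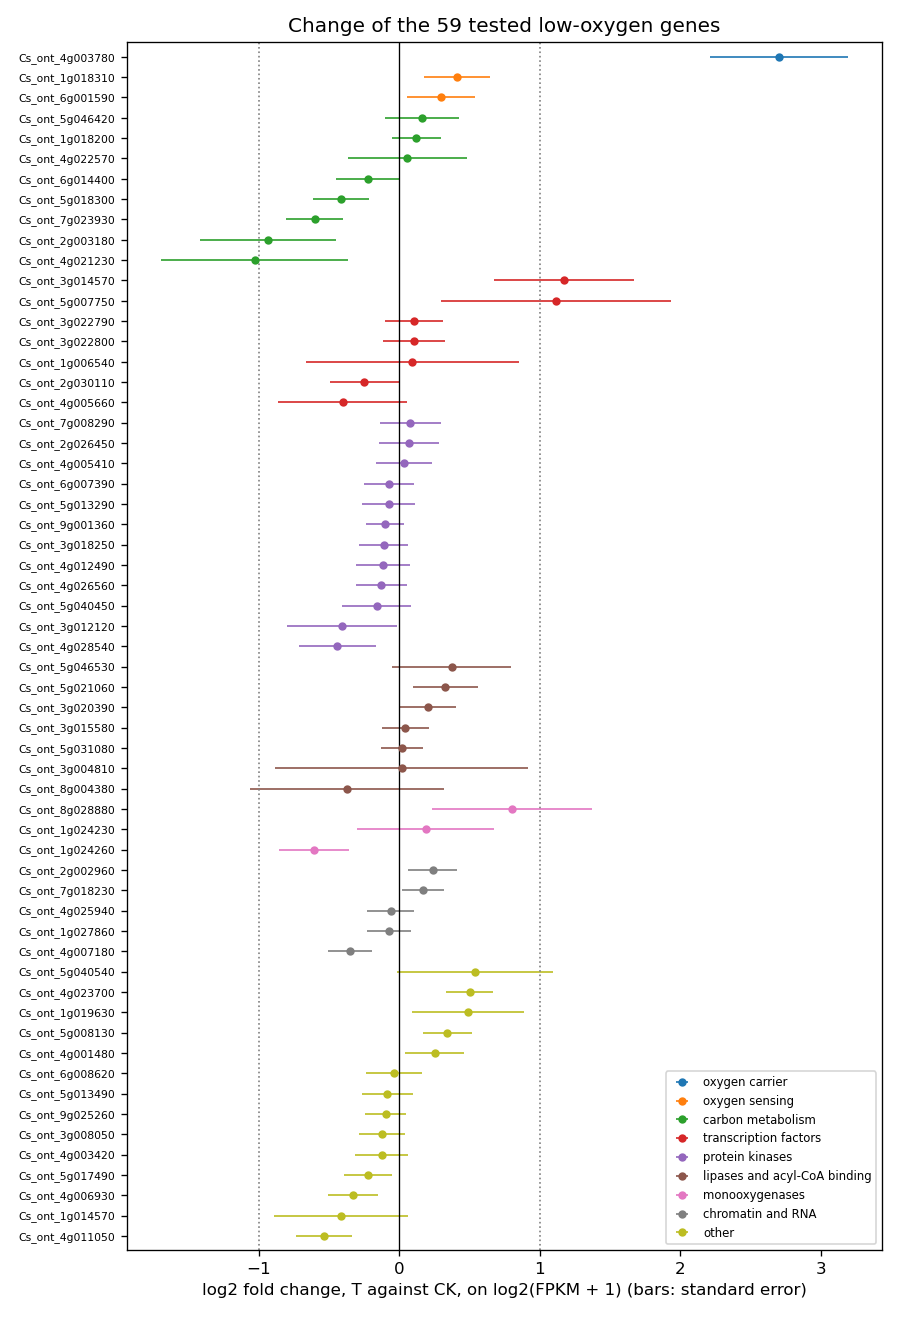
Log2 fold change of T against CK (x axis, on log2(FPKM + 1)) for the 59 tested low-oxygen genes (y axis), coloured by role, with bars for the standard error of limma and dotted lines at a 2-fold change. The oxygen carrier gene Cs_ont_4g003780 lies at 2.70, and the other 58 lie between -1.03 and 1.17.

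Cs_ont_4g003780 was the only gene of the table with the term oxygen carrier activity, the function of haemoglobins. It stood at 12.5, 14.0 and 25.9 FPKM in the CK libraries and at 81.0, 76.4 and 234 FPKM in the T libraries. Every T value was thus above every CK value, and T replicate 3 was far above the other two T libraries. The group means were 17.5 ± 7.34 FPKM in CK against 130 ± 89.7 FPKM in T (SD, n = 3 per group), a ratio of 7.48. The depth behind them was 660 to 1724 reads per library in CK and 3974 to 13732 in T.

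The log2 fold change of this gene was 2.70 (standard error, SE = 0.49, unadjusted p = 0.00114 and adjusted p = 0.470 from limma). Among the 16421 tested genes it had rank 24 by the size of the rise and rank 40 by p. The exact permutation test of the mean FPKM gave p = 0.1 (two-sided), the smallest that 3 libraries against 3 allow. Without T replicate 3 the log2 fold change was 2.18, and it lay between 2.18 and 3.01 when each library was left out in turn. The criterion was met under all 14 alternatives, but the adjusted p, from 0.131 to 1.0, passed 0.05 under none of them. With all its genes counted, the photosystem I sum was lower in T replicates 1 and 3 than in any CK library. In T replicate 2 it was 11413 FPKM, above the 10535 FPKM of CK replicate 3. Without Cs_ont_2g017340 the sum was 3502 to 4037 FPKM in T, below the 5007 to 6010 FPKM of CK. The part of the photosystem sums in this result was not tested.

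Both genes annotated to the detection of hypoxia, the sensing step, overlapped between the groups. Cs_ont_1g018310 is annotated as a DNA-binding transcription factor, and in Arabidopsis the factors that detect hypoxia are those degraded by way of cysteine oxidation. It stood at 177, 153 and 154 FPKM in CK and at 240, 254 and 162 FPKM in T. T replicates 1 and 2 were above all CK libraries, while T replicate 3, where the oxygen carrier gene was highest, lay within the CK range. Its log2 fold change was 0.41 (SE = 0.24, adjusted p = 0.999 from limma). Cs_ont_6g001590, annotated to the oxidation of peptidyl-cysteine, the reaction that marks these factors for breakdown, stood at 9.70, 7.26 and 9.15 FPKM in CK and at 11.5, 7.89 and 14.0 FPKM in T. Its log2 fold change was 0.30 (SE = 0.24, adjusted p = 0.999 from limma). The transcription factor was therefore present at 190 FPKM on average over the 6 libraries and the oxidase-type gene at 9.91 FPKM, both measured per length.

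**Figure D2:**
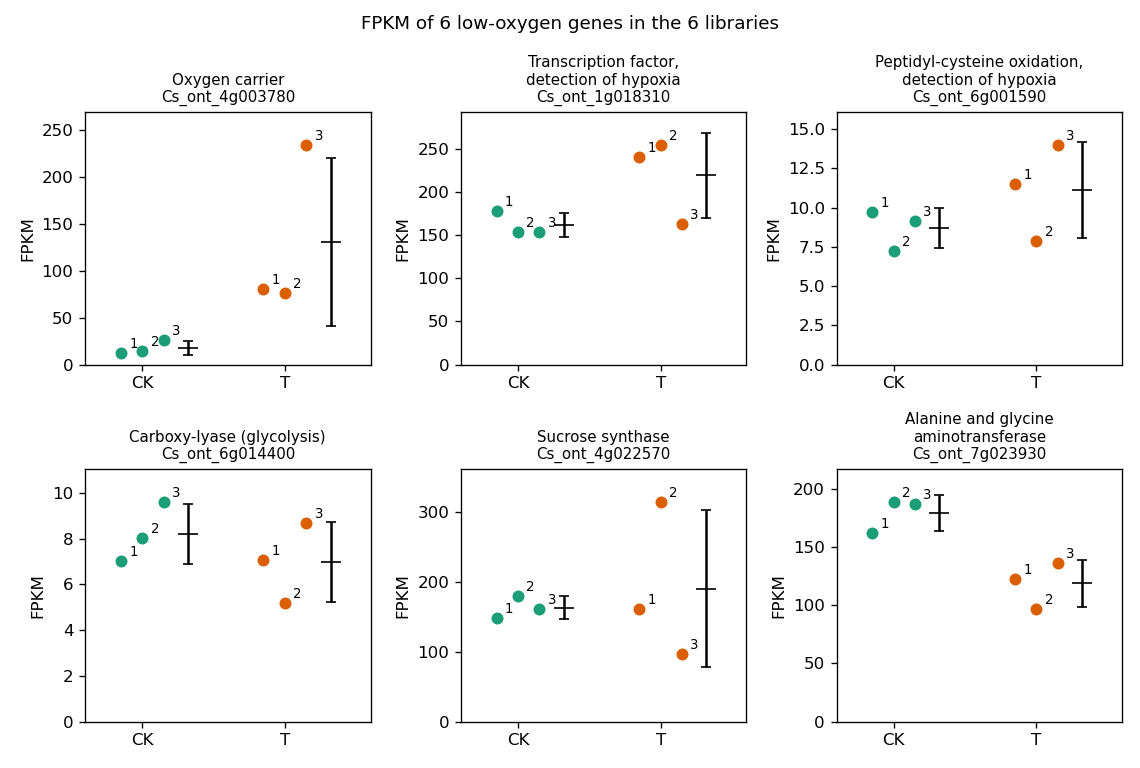
FPKM (y axes, from 0) of 6 low-oxygen genes in CK and T, with a point for each library, numbered by replicate, and the group mean with its SD beside the points (n = 3). The oxygen carrier gene is at 12.5 to 25.9 in CK and 76.4 to 234 in T, the aminotransferase Cs_ont_7g023930 at 162 to 189 and 97.1 to 137, and the groups overlap in the other 4 genes.

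The 10 members of carbon metabolism, which supply and drain glycolysis or pass on amino groups, were mixed in direction, with 3 higher and 5 lower in T among the 8 tested and 0 called. The lowest p among them was that of Cs_ont_7g023930, annotated as an alanine and glycine aminotransferase of photorespiration, the salvage of carbon after oxygen uptake by Rubisco. It stood at 162, 189 and 188 FPKM in CK and at 123, 97.1 and 137 FPKM in T. All T values lay below all CK values, with group means of 180 ± 15.2 and 119 ± 20.1 FPKM (SD, n = 3 per group). The log2 fold change of -0.60 (SE = 0.20) stayed short of 2-fold, and its unadjusted p was 0.0215 and its adjusted p 0.917 in limma (exact permutation test p = 0.1).

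The other aminotransferase, the mitochondrial alanine aminotransferase Cs_ont_1g018200, differed by less than its spread. Its levels were 63.2, 66.8 and 50.5 FPKM in CK and 72.5, 62.9 and 60.7 FPKM in T, and the log2 fold change was 0.12 (SE = 0.17). Alanine formed by such enzymes stores carbon and nitrogen when oxygen is short.

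Of 3 sucrose synthase genes in the set, enzymes that split sucrose at a low cost in ATP, only Cs_ont_4g022570 was expressed at an appreciable level. It stood at 148, 180 and 161 FPKM in CK and at 161, 314 and 96.0 FPKM in T. The highest and the lowest value of all 6 libraries were both in T, so that the log2 fold change of 0.06 (SE = 0.42) had no stable direction, at -0.39 without T replicate 2 and 0.46 without T replicate 3. The other two, Cs_ont_4g022500 and Cs_ont_9g002520, had at most 5 and 28 reads in a library and were not tested.

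Cs_ont_6g014400 is annotated as a carboxy-lyase of the KEGG glycolysis pathway, the enzyme type that includes pyruvate decarboxylase, the first step of ethanol fermentation. It stood at 7.0036, 8.02 and 9.61 FPKM in CK and at 7.07, 5.21 and 8.70 FPKM in T. The groups overlapped, and the log2 fold change was -0.22 (SE = 0.23).

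The fructose-bisphosphate aldolase Cs_ont_4g021230, which cleaves a 6-carbon sugar phosphate in glycolysis, had the lowest fold change of the set, -1.03 on the log2 scale (SE = 0.67, adjusted p = 0.999 from limma). This value rested on 1 library. Its levels were 29.0, 58.4 and 60.9 FPKM in CK and 38.8, 7.14 and 39.1 FPKM in T, and without T replicate 2 the log2 fold change was -0.26. Cs_ont_2g003180, annotated to the transport of lactate and water, was also lowest in T replicate 2, at 3.45 FPKM. Its other T values were 9.81 and 7.35 FPKM and its CK values 7.32, 23.6 and 12.7 FPKM, and the log2 fold change was -0.93 (SE = 0.48). It met the criterion only without CK replicate 1, with a log2 fold change of -1.31 and an adjusted p of 0.555 from limma.

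The last 2 genes of this group act on aldehydes and their products. Cs_ont_5g018300, a hydroxyacylglutathione hydrolase that completes the removal of methylglyoxal formed in glycolysis, averaged 45.6 ± 9.95 FPKM in CK (SD, n = 3), and CK replicate 1, at 34.2, lay within the T range of 31.5 to 36.3. Cs_ont_5g046420, a betaine-aldehyde dehydrogenase, stood at 43.8 ± 7.43 and 50.2 ± 15.2 FPKM (SD, n = 3 per group). Neither differed at an adjusted p under 0.05 in limma (adjusted p = 0.999 for both).

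Among the 9 transcription factors outside the sensing step, 7 were tested and 0 called, although some of the most abundant members were here. Cs_ont_1g006540, with the highest mean level of the set at 712 FPKM, stood at 896, 1278 and 174 FPKM in CK and at 713, 449 and 759 FPKM in T. It was lowest in CK replicate 3, and its log2 fold change of 0.09 (SE = 0.76) became -0.78 without that library.

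Cs_ont_5g007750, annotated to the response to anoxia, stood at 353, 234 and 36.3 FPKM in CK and at 362, 234 and 372 FPKM in T. The 5 libraries other than CK replicate 3 lay between 234 and 372 FPKM, and the log2 fold change of 1.12 (SE = 0.82) was 0.13 without it. Cs_ont_4g005660, annotated to heat acclimation and the unfolded protein response, stood at 243, 415 and 112 FPKM in CK, while its T libraries lay close together at 171, 166 and 173 FPKM. Its log2 fold change was -0.40 (SE = 0.46), with -0.90 when CK replicate 3 was left out and 0.04 when CK replicate 2 was.

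Cs_ont_3g014570, a calmodulin-binding factor whose terms include responses to bacteria and the control of salicylic acid, had the second highest fold change of the set. It stood at 11.7, 7.19 and 2.71 FPKM in CK and at 23.5, 14.5 and 10.7 FPKM in T. Only T replicate 3 fell within the CK range, and the group means were 7.21 ± 4.51 and 16.2 ± 6.59 FPKM (SD, n = 3 per group). The log2 fold change was 1.17 (SE = 0.49, unadjusted p = 0.0521, adjusted p = 0.999 from limma), just outside the criterion, and it was 0.69 without CK replicate 3. Alternatives under which it met the criterion included those without CK replicate 1 or T replicate 3, at 1.58 and 1.42.

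The 3 transcription factors of ethylene signalling, which carried identical GO process terms, overlapped between the groups. Cs_ont_3g022800, the most abundant of them, averaged 114 ± 11.1 FPKM in CK against 125 ± 30.4 FPKM in T, its neighbour in the table Cs_ont_3g022790 averaged 57.5 ± 5.93 and 62.8 ± 13.5, and Cs_ont_2g030110 averaged 98.3 ± 16.2 and 84.0 ± 24.2 (SD, n = 3 per group). Their log2 fold changes were 0.11, 0.11 and -0.25. Whether these genes are similar enough in sequence for reads to be split between them was not tested. The remaining transcription factors, Cs_ont_4g011040 and Cs_ont_9g020720, had at most 4 and 0 reads in a library.

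**Figure D3:**
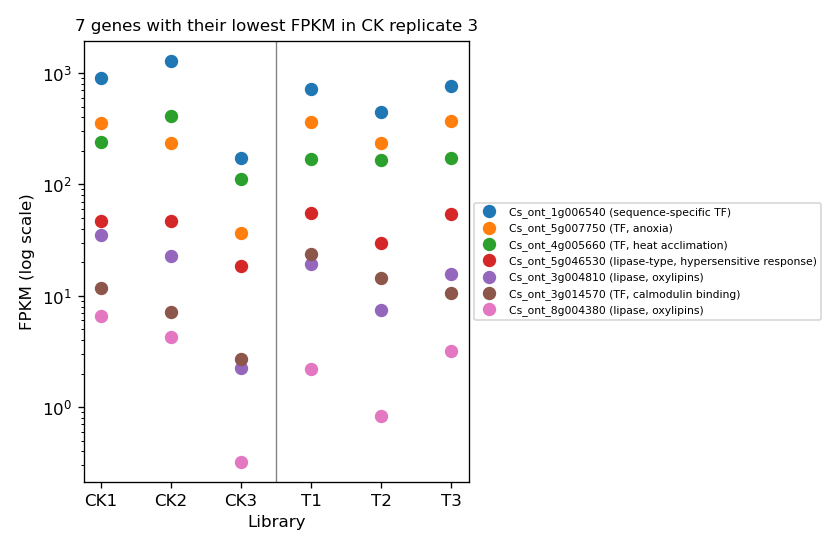
FPKM (y axis, log scale) of 7 transcription factor and lipase-type genes of the low-oxygen set in each library (x axis), a point per gene and library. Each gene has its lowest level in CK replicate 3, for example 36.3 FPKM of Cs_ont_5g007750 against 234 to 372 in the other 5 libraries.

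CK replicate 3 held the lowest value of 10 of the 59 tested members, or 16.9%, against 11.9% of all tested genes, and the highest value of 16, or 27.1%, against 28.4%. Of the 10 members lowest in it, 7 were transcription factors or lipase-type genes. These 7 were picked for display after their values had been seen. T replicate 2 held the lowest value of 15 members, or 25.4%, against 12.1% of all tested genes, and 7 of these 15 were protein kinases and 4 genes of carbon metabolism. These library differences crossed the boron groups, and their source was not tested.

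**Figure D4:**
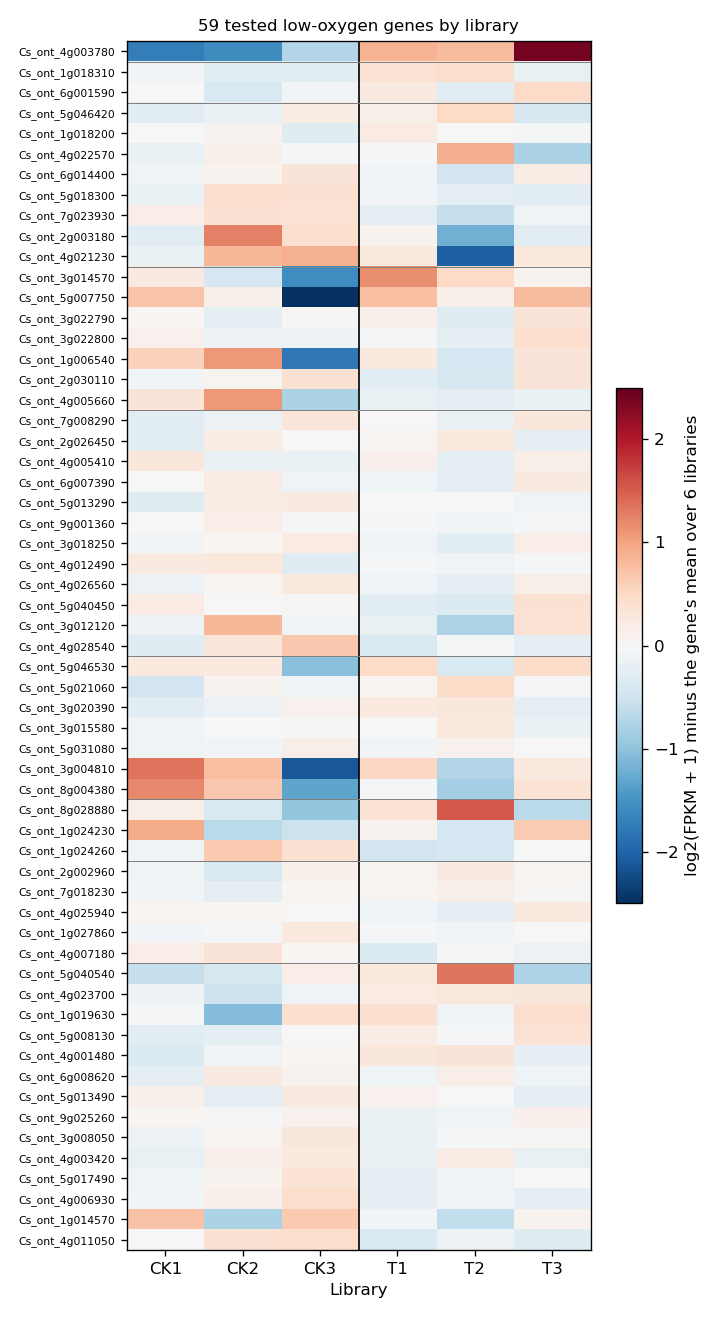
Level of each of the 59 tested low-oxygen genes (rows, ordered by role and split by grey lines) in each library (columns), as log2(FPKM + 1) minus the mean of the gene over the 6 libraries. The top row, the oxygen carrier gene, is low in the 3 CK and high in the 3 T libraries, whereas the transcription factors and lipases that vary most are low in CK replicate 3.

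Lipase-type genes were among those lowest in CK replicate 3. Of the 5 lipases of oxylipin biosynthesis, the pathway that also leads to jasmonate, 2 were tested. Cs_ont_3g004810 stood at 34.9, 22.7 and 2.23 FPKM in CK and at 19.1, 7.48 and 15.6 FPKM in T, and Cs_ont_8g004380 at 6.57, 4.26 and 0.321 FPKM and at 2.18, 0.826 and 3.20 FPKM. Both genes were lowest in CK replicate 3 and highest in CK replicate 1, so the extremes of both lay within 1 group. Their log2 fold changes of 0.02 (SE = 0.90) and -0.37 (SE = 0.69) became -1.04 and -1.12 without CK replicate 3, where only Cs_ont_8g004380 met the criterion, with an adjusted p of 0.810 from limma. Without CK replicate 1 the log2 fold change of Cs_ont_8g004380 was 0.14, so its direction turned as well.

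Of the 2 lipase-type genes of the hypersensitive response, a form of programmed cell death against pathogens, Cs_ont_5g046530 stood at 46.4, 46.5 and 18.3 FPKM in CK and at 55.2, 29.7 and 54.0 FPKM in T. Its partner Cs_ont_5g021060 averaged 5.81 ± 1.31 FPKM in CK against 7.52 ± 1.55 FPKM in T (SD, n = 3 per group), from 18 to 45 reads per library. Both overlapped between the groups. The 3 acyl-CoA-binding proteins, carriers of activated fatty acids, had mean levels of 14.8 to 44.2 FPKM over the 6 libraries and log2 fold changes of 0.02 to 0.21. In Arabidopsis, such a protein holds an oxygen-sensing factor at the plasma membrane until oxygen falls.

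The protein kinases formed the largest annotated group, with 14 members, of which 12 were tested and 0 called. In Arabidopsis, a kinase related to MAP kinase kinase kinases keeps ethylene signalling switched off while no ethylene is bound. All 14 carried the term response to ethylene, and 12 of the 14 shared an identical list of 110 GO process terms. Of the tested kinases 3 were higher and 9 lower in T, within a narrow range of log2 fold changes from -0.44 to 0.08. The lowest was Cs_ont_4g028540, at 14.6 ± 5.04 FPKM in CK against 10.1 ± 1.30 FPKM in T (SD, n = 3 per group), and the most abundant Cs_ont_9g001360, at 38.1 ± 2.98 and 35.4 ± 0.545 (SD, n = 3 per group). The MAP kinase kinase kinase Cs_ont_3g018250, the only kinase of the set with that activity, stood at 21.2 ± 2.13 and 19.7 ± 3.18 FPKM (SD, n = 3 per group).

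Only 3 of the 9 monooxygenases, enzymes that insert 1 atom of molecular oxygen into their substrate, were tested. Cs_ont_1g024260, whose terms name indole glucosinolate biosynthesis, stood at 52.1, 89.4 and 73.4 FPKM in CK and at 40.4, 41.8 and 56.1 FPKM in T. T replicate 3 lay above CK replicate 1, and the log2 fold change was -0.61 (SE = 0.25, unadjusted p = 0.0463, adjusted p = 0.999 from limma). Cs_ont_1g024230, of the same 4 neighbouring genes with identical terms, was higher in CK replicate 1 and T replicate 3, at 99.2 and 80.4 FPKM, than in the other libraries, at 31.8 to 55.0. The 2 genes between them had at most 6 reads in a library. Indole glucosinolates are known as defence compounds of Arabidopsis, and what these enzymes make in citrus is not given by the table.

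Cs_ont_8g028880, a monooxygenase annotated to defence signalling, stood at 18.2, 12.2 and 7.87 FPKM in CK and at 21.0015, 48.8 and 9.90 FPKM in T. The high value of T replicate 2 set its spread, and the log2 fold change was 0.80 (SE = 0.57, adjusted p = 0.999 from limma). It met the criterion without T replicate 3 only, with 1.34 and an adjusted p of 0.617 from limma. Cs_ont_3g004400, with 20 to 140 reads per library, was above 1 FPKM in T replicates 1 and 2 only, at 4.04 and 2.37, and was not tested.

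Of the 6 members of chromatin and RNA control, 5 were tested and 0 called. Cs_ont_4g007180, of a chromatin silencing complex, stood at 33.2, 37.2 and 30.5 FPKM in CK and at 23.2, 28.6 and 26.7 FPKM in T. All T values were below all CK values, with a log2 fold change of -0.35 (SE = 0.16, unadjusted p = 0.0629, adjusted p = 0.999 from limma). The Polycomb member Cs_ont_4g025940, which binds methylated histones, stood at 31.9 ± 0.587 FPKM in CK against 30.8 ± 5.51 FPKM in T (SD, n = 3 per group). The RNA helicase Cs_ont_7g018230 of the exon junction complex was at 59.3 ± 5.94 and 66.5 ± 2.74 FPKM, and the RNA demethylase Cs_ont_1g027860 at 15.1 ± 2.06 and 14.2 ± 0.410 FPKM (SD, n = 3 per group).

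Among the remaining 25 members, 14 were tested, 5 higher and 9 lower in T, and 0 were called. The metalloaminopeptidase Cs_ont_4g023700, an enzyme type that trims proteins from their first residue, stood at 56.4, 43.0 and 57.0 FPKM in CK and at 70.9, 74.4 and 75.7 FPKM in T. The T libraries lay close together and above all CK libraries. The log2 fold change was 0.50 (SE = 0.17, unadjusted p = 0.0219, adjusted p = 0.917 from limma; exact permutation test p = 0.1), short of 2-fold. Its terms also name auxin transport. The second aminopeptidase, Cs_ont_1g019630, stood at 6.27 ± 3.40 and 8.49 ± 1.76 FPKM (SD, n = 3 per group).

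Cs_ont_4g011050, annotated to systemic acquired resistance and to hormone signal transduction in KEGG, stood at 4.39, 5.88 and 6.06 FPKM in CK and at 3.10, 3.85 and 3.34 FPKM in T. All T values were below all CK values, and the log2 fold change was -0.53 (SE = 0.20, unadjusted p = 0.0356, adjusted p = 0.981 from limma). The depth behind it was 133 to 353 reads per library. The calcium:sodium antiporter Cs_ont_5g008130, of a type that moves calcium across membranes, stood at 53.8, 55.0 and 65.2 FPKM in CK and at 74.6, 63.4 and 84.1 FPKM in T, with 1 T value within the CK range and a log2 fold change of 0.34 (SE = 0.17, adjusted p = 0.999 from limma).

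The 27 members that were not tested did not exceed 4.04 FPKM or 140 reads in any library, and 11 of them had no read at all. Those at 0 included 4 genes with identical low-oxygen terms and no molecular function, 2 endoribonucleases of the Ire1 complex, which splices RNA under protein-folding stress, and an auxin efflux carrier. Each endoribonuclease carried the same 310 process terms, so that the low-oxygen terms were a small share of its annotation.

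Beyond the rule, members often shared terms of hormones and defence. Response to ethylene was carried by 19 of the 86 members, or 22.1%, against 2.01% of the 10150 genes with a process term. For the defence response the shares were 24.4% and 8.23%, for the response to bacterium 23.3% and 4.61%, and for wounding 6.98% and 2.55%. Response to abscisic acid was carried by 1 member, or 1.16%, against 4.26%. Since 50 of the members fell into 15 sets with identical process terms, these shares partly count repeated annotation and not independent genes.

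Enzymes of low-oxygen metabolism outside the set were examined by GO molecular function. Alcohol dehydrogenase activity, the last step of ethanol fermentation, was carried by a single gene, Cs_ont_6g025470. This gene also carried the term response to heat, and whether it acts in fermentation was not tested. It stood at 58.9 ± 10.3 FPKM in CK against 48.6 ± 4.47 FPKM in T (SD, n = 3 per group). The log2 fold change was -0.26 (SE = 0.18, adjusted p = 0.999 from limma). All its T values lay below all its CK values, but only barely, with 51.3851 FPKM in T replicate 3 and 51.3893 FPKM in CK replicate 1. The 3 other tested sucrose synthases lay between -0.27 and 0.22 on the log2 fold change scale. The most abundant of them, Cs_ont_5g007820, stood at 91.6, 80.7 and 99.2 FPKM in CK and at 115, 93.5 and 109 FPKM in T. The 3 genes of alternative oxidase, the mitochondrial bypass that passes electrons to oxygen, had log2 fold changes of -0.39 to 0.98 and 0 calls. Cs_ont_8g015160, with the smallest p of these, stood at 25.2 ± 5.91 and 18.8 ± 2.73 FPKM (SD, n = 3 per group), and Cs_ont_3g020470 at 22.2, 2.26 and 6.16 FPKM in CK and at 20.3, 10.2 and 16.4 FPKM in T.

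Oxygen binding, a term close to oxygen carrier activity, was held by 4 further genes. None of the 3 tested was called, and that with the smallest p, Cs_ont_5g041840, stood at 14.2 ± 2.71 FPKM in CK against 16.3 ± 2.69 FPKM in T (SD, n = 3 per group). Both genes of the response to flooding were tested and not called. Cs_ont_4g019170, with the smaller p, stood at 15.9, 13.6 and 7.99 FPKM in CK and at 33.2, 10.2 and 15.1 FPKM in T. The terms pyruvate decarboxylase, L-lactate dehydrogenase and cysteine dioxygenase activity were carried by 0 genes of the table. Genes were matched by these terms only, so this does not show that such enzymes were absent. Of the 4 genes with alanine transaminase activity, 2 were members. The others, Cs_ont_7g018250 and Cs_ont_7g024060, had at most 0 and 1 reads in a library and were not tested.

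Wider stress lists, without the members, were mixed in direction by the fold change. Higher and lower genes in T numbered 58 and 58 for ethylene, 74 and 69 for heat, and 26 and 30 for hydrogen peroxide. Of 116 tested genes of the response to ethylene, 3 were called higher and 3 lower in T, of 143 of the response to heat 2 higher and 1 lower, and of 56 of the response to hydrogen peroxide 1 higher and 0 lower. These are shares of 5.17%, 2.10% and 1.79%, beside 2.36% of all tested genes, and some genes stand in more than 1 list. Their median log2 fold changes were 0.00, 0.01 and -0.02, against 0.02 over all tested genes. Cs_ont_9g002300, in the ethylene and heat lists, stood at 102, 58.4 and 81.7 FPKM in CK and at 145, 316 and 175 FPKM in T, with a log2 fold change of 1.34 (SE = 0.35, adjusted p = 0.743 from limma). Cs_ont_9g006400, of the heat list, stood at 0.646, 1.33 and 2.38 FPKM in CK and at 4.18, 12.8 and 14.6 FPKM in T, with 2.14 (SE = 0.49, adjusted p = 0.598 from limma). Both had no overlap between the groups and met the criterion. Cs_ont_8g026750, of the heat and hydrogen peroxide lists, stood at 54.3, 49.5 and 55.0 FPKM in CK and at 18.7, 25.7 and 41.6 FPKM in T. Its log2 fold change of -0.94 (SE = 0.29, adjusted p = 0.840 from limma) fell short of 2-fold, although all T values were below all CK values. It met the criterion with array weights, at -1.31, and without T replicate 3, at -1.23.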

How the data were processed

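The deposited table holds FPKM values per gene and library. According to the methods of the paper, the authors made these FPKM values from reads trimmed by fastp, aligned by HISAT2 and assigned to genes by HTSeq. Tool versions are not named there, and the paper names a version of the sweet orange genome for its gene family analysis but not for the alignment. The authors' group averages and columns of their own comparison (log2 fold change, p-value and call) were not used. GO and KEGG annotation was taken from the same table.

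Read counts were recovered as whole numbers that fit the FPKM values. The implied length was a whole number, to 0.001 base, in 99.98% of the 22740 genes with any value above 0 (413 of them after restoring a shared factor), and 7135 genes were at 0. For a 1000-base gene, 1 read corresponds to 0.0414 to 0.0563 FPKM. Precision is limited by the 3 libraries per group.

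The groups were compared with limma 3.58.1 (R 4.3.3) on log2(FPKM + 1), with an intensity trend, two-sided, and p-values were adjusted by the Benjamini-Hochberg method across the 16421 genes that reached 1 FPKM in 3 or more libraries. This scale understates the change of low genes. For single genes, mean FPKM was in addition put to an exact permutation test. The fit was tested on simulated data with independent noise for each gene and library. Such data lack the library differences described above, so the fit was not tested under them. Alternatives were a pseudocount of 0.1, no filter, a filter at an FPKM of 5, median-ratio and quantile scaling, voom on the recovered reads, array weights, a replicate block and leaving out each library. Python 3.11.15 with pandas 2.3.3, numpy 2.4.6 and matplotlib 3.10.9 did the rest.

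The members and lists were chosen with earlier results of these data known. Genes named by rule were Cs_ont_4g003780, members that met the criterion, the 10 members with the smallest p, the 8 with the highest mean FPKM, the 3 with the largest range of log2(FPKM + 1), and the gene with the smallest p of each list. Further genes were named for their annotation or after their values were seen. A marker list for Rubisco activity matched 0 genes. Those for xylem, guard cells, trichomes and the mitotic cell cycle had overlapping sums in T and CK. No genome or sequence of the gene models was used, so neither coordinates nor sequences are given.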

Additional observations from a re-analysis of the deposited data

How the results depend on the processing

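The oxygen carrier gene met the criterion under all 14 alternatives. The number of members at an adjusted p under 0.05 in limma was 0 in every one. The number of members that met the criterion was 2 with voom, with array weights and with a replicate block, each adding Cs_ont_3g014570, and 1 to 3 when a library was left out: 3 without CK replicate 1 or T replicate 3, and 2 if CK replicate 3 was left out. The median log2 fold change of the members stayed between -0.06 and 0.0006 when a library was left out. Over all tested genes, 387 met the criterion, against 930 with array weights and 241 to 744 when a library was left out; the lowest counts, 241 and 257, came without T replicate 1 or CK replicate 2, the highest, 744 and 627, without CK replicate 1 or T replicate 3. The 1 gene at an adjusted p under 0.05 became 0 with no filter, with voom and with a replicate block, 12 with array weights, and 0 to 2 when a library was left out. The array weight was 6.29 for T replicate 1 and 0.479 to 0.958 for the other libraries, so that setting rested mostly on 1 library in T.

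In the stress and enzyme lists outside the set, 5 genes were called higher and 4 lower. The higher calls numbered 3 with the filter at an FPKM of 5 and with quantile normalization, 11 with array weights, 9 with a replicate block and 3 to 9 when a library was left out. The lower calls numbered 0 to 7 in that case. The cause of these shifts was not tested.

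Same-numbered libraries did not deviate together in every pair, with correlations of 0.282, 0.212 and -0.037, so the replicate number was not taken as a pairing. Between libraries of different number, the correlations ran from -0.404 (CK replicate 1 with T replicate 2) to 0.227 (CK replicate 1 with T replicate 3). The source of this shared variation across the boron groups was not tested. With the replicate block, 470 genes met the criterion.

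Under at least 1 alternative, 21 of the 59 tested members changed sign, 16 of them only when a library was left out, and the largest of their log2 fold changes in size was -0.40. Cs_ont_3g004810 had a log2 fold change of -0.0105 with quantile normalization and ranged from -1.04 to 0.70 when a library was left out. Cs_ont_1g006540 was at -0.10 with array weights and ranged from -0.78 to 0.66, and Cs_ont_4g022570 was at -0.0105 with array weights and ranged from -0.39 to 0.46. The ranges were -0.90 to 0.0412 for Cs_ont_4g005660 and -0.0811 to 0.2426 for Cs_ont_3g022800.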
